A study of Homo sapiens with 8 samples.

Results

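The genes described here are 7 ligands (WNT3, WNT4, WNT5A, WNT5B, WNT7A, WNT7B and WNT10A), the receptor FZD6, and the feedback inhibitors DKK1 and AXIN2. They were taken by their symbols from tables of 24252 genes, and each of the 10 symbols belonged to 1 row. The RNA came from HaCaT, a human keratinocyte line that grows without limit in culture, with 4 libraries labelled OGD-R and 4 labelled Control. OGD-R stands for loss of oxygen and glucose and then reperfusion, here at its early stage. For Control cells the labels name no treatment. The labels state neither the durations nor whether replicates were separate cultures, so the spread behind each p-value is that of the libraries and could be technical only. Both groups are 1 cell line in culture, without the dermal cells that exchange Wnt signals with the epidermis in skin.

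Wnt ligands are secreted lipid-modified glycoproteins that bind Frizzled receptors. In the canonical branch of the pathway they stop a destruction complex built on AXIN proteins from removing beta-catenin, which then works with TCF and LEF factors on target genes. AXIN2 and DKK1 are targets that feed back on the signal, and other ligands, such as WNT5A, act through receptors that do not need beta-catenin. In skin the pathway is known for hair follicle formation, for renewal of the basal epidermis and for the polarity of epidermal cells.

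Values are FPKM, fragment numbers scaled to transcript length and library size, so levels of genes can be set side by side per length. Judged by the spacing of the lowest values, the fragments behind a member's value ran from at most about 5.97 for AXIN2 to between 2774 and 4414 for DKK1, and WNT4 rested on 23.1 to 70.7. Controls 1 and 2 stood apart from Controls 3 and 4. Over tested genes, log2 values of Controls 1 and 2 correlated at 0.992 and those of Controls 3 and 4 at 0.991, but between these pairs the range was 0.874 to 0.881. OGD-R libraries correlated at 0.940 to 0.947 with Controls 1 and 2 and at 0.879 to 0.887 with Controls 3 and 4, so Controls 1 and 2 were closer to OGD-R than to the other Controls. OGD-R libraries correlated with each other at 0.992 to 0.993. In 82.2% of tested genes Controls 1 and 2 did not overlap Controls 3 and 4, so values of each Control are given for all members. Many other genes are given only as a Control mean and SD, which can hide such a split. The cells carried keratinocyte RNA, with all 8 markers tested: 3 were higher, 2 lower and 3 not called. KRT5 was at 4973 ± 116 FPKM in OGD-R and 2504 ± 486 FPKM in Control, and ITGB4 at 101 ± 6.09 FPKM in OGD-R and 175 ± 32.9 FPKM in Control (SD, n = 4 each). Of 24 markers of fibroblasts, melanocytes, endothelial cells and leukocytes, 2 reached a mean of 1 FPKM. These were COL1A1 of fibroblasts, between 3.45 and 4.20 FPKM in OGD-R and between 0.860 and 8.69 FPKM in Control, and CD68 of leukocytes, which fell and was at 3.41 ± 0.359 FPKM in OGD-R and 14.5 ± 1.97 FPKM in Control. The other markers were low, with PTPRC at most 0.0245 FPKM and COL1A2 and TYR listed at 0 in every library. Among these low markers DCN, LUM, VWF, PMEL and CD14 were wholly higher in OGD-R, at no more than 0.629 FPKM. These were all of the low markers with a mean of 0.1 to 1 FPKM, and the rest had means under 0.1 FPKM. Of all 4472 genes with a mean of 0.1 to 1 FPKM, 16.6% were wholly higher in OGD-R. The summed levels were 3.82 to 4.99 FPKM in OGD-R and 0.882 to 8.72 FPKM in Control for fibroblasts, and 3.32 to 3.99 FPKM in OGD-R and 12.4 to 16.9 FPKM in Control for leukocytes. For melanocytes they were 0.543 to 0.699 FPKM in OGD-R and 0.205 to 0.451 FPKM in Control, and for endothelial cells 0.297 to 0.463 FPKM in OGD-R and 0.0475 to 0.199 FPKM in Control. Their part in the results was not tested. The summed FPKM of 9 mitochondrially encoded messages lay between 95190 and 104400 in OGD-R and between 56780 and 75150 in Control, which lowers the FPKM of all other genes in OGD-R. Results that change when these messages are left out of the scaling are named.

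The start region of DKK1, a known feedback target of beta-catenin, is shown. Among the members' windows it alone lay wholly outside its own gene in GENCODE 29, and it alone held a motif match. It is the 250 bases before the RefSeq gene start in GRCh38.p14, chr10:52314031-52314280 on the plus strand, 5′ to 3′, and capitals mark the TCF/LEF core CTTTGA on either strand.
DKK1: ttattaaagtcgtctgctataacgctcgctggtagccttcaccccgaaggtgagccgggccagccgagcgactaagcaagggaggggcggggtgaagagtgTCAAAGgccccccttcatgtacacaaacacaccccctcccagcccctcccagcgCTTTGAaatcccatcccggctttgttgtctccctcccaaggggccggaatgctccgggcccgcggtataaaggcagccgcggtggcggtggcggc
DKK1 held 2 such cores, starting 149 and 95 bases before the gene start, where 11.2% of 35114 windows of this length in the RefSeq table held at least 1. The AP-1 site TGANTCA (in 6.57% of windows) and the hypoxia response element core ACGTG (in 18.5%), searched on both strands, had no match in the DKK1 window, so no motifs overlapped. RefSeq and GENCODE 29 place the starts of the other members differently. AXIN2, FZD6 and WNT7B had no window in the RefSeq table. Of the 7 members with a window, 5 (WNT3, WNT4, WNT5A, WNT5B and WNT10A) had it wholly inside the GENCODE gene. WNT7A had 50 of its bases inside, and DKK1 alone had none. None of the 3 motifs matched in these 6 windows, which are therefore in part or whole not upstream of the GENCODE gene. WNT5A and WNT5B have 2 RefSeq entries each, and only the first of each was searched. These matches describe letters in the window and do not show that a factor binds there.

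WNT10A, a ligand of hair follicles, teeth and basal epidermis, was the most abundant of the 7 ligands, and it rose in OGD-R. It was at 58.7, 49.8, 54.9 and 49.4 FPKM in OGD-R libraries 1 to 4, against 20.5, 19.5, 21.3 and 19.95 FPKM in Controls 1 to 4. The groups lay far apart, and the 4 Controls were within 2 FPKM of each other although they split in most genes. The means were 53.2 ± 4.46 FPKM in OGD-R and 20.3 ± 0.772 FPKM in Control (SD, n = 4 each), a ratio of 2.62. The log2 fold change of FPKM + 1 was 1.34 ± 0.09 (SE; limma, Benjamini-Hochberg adjusted p = 7.76e-05 over all 11740 genes tested). Against Controls 1 and 2 alone it was 1.36, and against Controls 3 and 4 alone 1.32. WNT10A (ENSG00000135925) lies on chromosome 2, 218880363 to 218899581, plus strand, GRCh38, and the neighbouring ligand gene WNT6 ends 6129 bases before it. WNT6 RNA was low and overlapped between groups, at 0.327, 0.286, 0.238 and 0.335 FPKM in OGD-R libraries 1 to 4 and 0.0779, 0.155, 0.445 and 0.290 FPKM in Controls 1 to 4. As in all bulk RNA, a change in how many cells make a message cannot be told apart from a change per cell.

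WNT7A, a ligand made by the epidermis and other epithelia, fell in OGD-R. It was at 2.26, 2.08, 2.32 and 2.17 FPKM in OGD-R libraries 1 to 4, against 6.37, 5.59, 8.92 and 7.91 FPKM in Controls 1 to 4. Every OGD-R library was below every Control, and Controls 3 and 4 were above Controls 1 and 2. The means were 2.21 ± 0.103 FPKM in OGD-R and 7.19 ± 1.499 FPKM in Control (SD, n = 4 each), and the log2 fold change was -1.34 ± 0.13 (SE; limma adjusted p = 0.000544). With only Controls 1 and 2 it was -1.12, and with only Controls 3 and 4 it was -1.55. WNT7A (ENSG00000154764) lies on chromosome 3, 13816258 to 13880121, minus strand.

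WNT7B, the closest relative of WNT7A, was not called. It was at 3.69, 3.15, 3.27 and 2.96 FPKM in OGD-R libraries 1 to 4, against 3.37, 3.41, 3.39 and 3.56 FPKM in Controls 1 to 4. The groups overlapped, and the 4 Controls lay within the range of the OGD-R libraries. Its log2 fold change was -0.06 (95% interval -0.25 to 0.14; limma adjusted p = 0.671), and with FPKM rescaled without mitochondrially encoded genes it was 0.000869. The 95% interval of WNT7A was -1.65 to -1.03. WNT7B (ENSG00000188064) lies on chromosome 22, 45920362 to 45977129, minus strand. In OGD-R WNT7B was the higher of the pair in each library, and in Control WNT7A was.

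WNT5B, a ligand that mostly signals without beta-catenin, fell in OGD-R, by an amount that depended on the Controls. It was at 1.44, 1.16, 1.47 and 1.67 FPKM in OGD-R libraries 1 to 4, against 2.97, 2.59, 7.61 and 8.51 FPKM in Controls 1 to 4. Every OGD-R library was below every Control, and Controls 3 and 4 were 2.90 times Controls 1 and 2. The log2 fold change was -1.27 ± 0.33 (SE; limma adjusted p = 0.0294), and against Controls 1 and 2 alone it was -0.64, against Controls 3 and 4 alone -1.90. Leaving out any 1 OGD-R library ended the call (limma adjusted p between 0.0689 and 0.0849), and without Control 3 (0.0651) or Control 4 (0.0504). Without any 1 OGD-R library, calls also fell over all genes tested. They were then 711 to 744 higher and 561 to 669 lower, beside 1202 and 1138 with all libraries. WNT5B (ENSG00000111186) lies on chromosome 12, 1529891 to 1647243, plus strand.

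**Figure D1:**
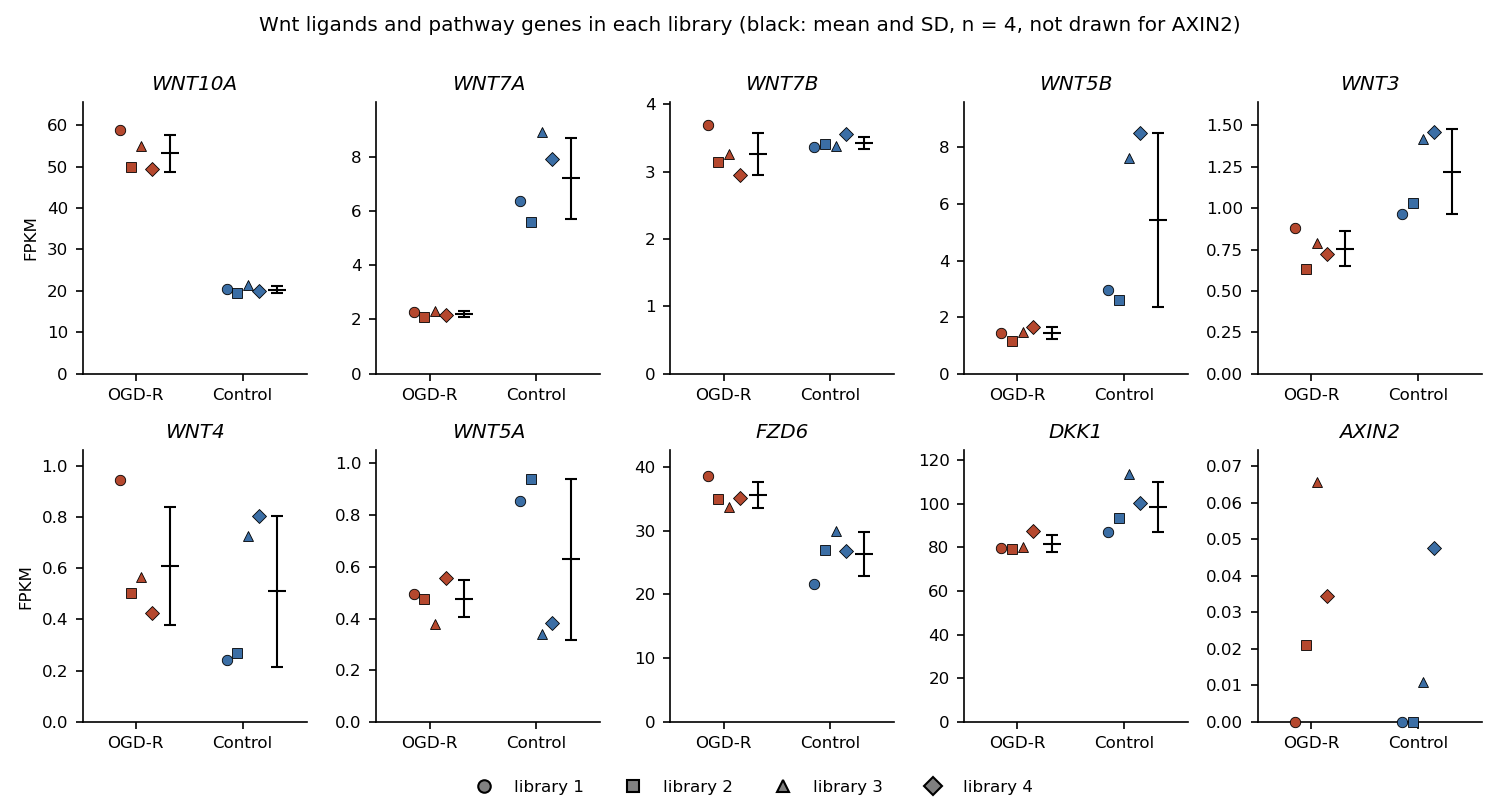
FPKM of each gene (vertical axes from 0, each with its own scale) in the 4 OGD-R libraries (red) and the 4 Control libraries (blue), with symbols for the library number and black bars for the mean and SD. WNT10A and FZD6 lie wholly higher and WNT7A, WNT5B and WNT3 wholly lower in OGD-R. Controls 3 and 4 do not overlap Controls 1 and 2 in 7 of the 10 genes (WNT3, WNT4, WNT5A, WNT5B, WNT7A, DKK1 and AXIN2).

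The remaining ligands, WNT3, WNT4 and WNT5A, had a mean under 1 FPKM over all libraries and were below the limit for the limma test. WNT3, a canonical ligand, lay just under that limit, with a mean of 0.988 FPKM. It was at 0.879, 0.630, 0.790 and 0.724 FPKM in OGD-R libraries 1 to 4, against 0.968, 1.03, 1.42 and 1.46 FPKM in Controls 1 to 4. Every OGD-R library was below every Control, with a log2 difference of -0.33 (exact two-sided permutation p = 0.0286, the smallest that 4 against 4 libraries can give). Of the 4472 genes with a mean of 0.1 to 1 FPKM, 5.14% were likewise wholly lower in OGD-R, and in 21.8% the groups lay apart in either direction. When genes down to 0.1 FPKM entered the limma test, WNT3 did not pass (adjusted p = 0.0570). WNT3 (ENSG00000108379) lies on chromosome 17, 46762506 to 46833154, minus strand, with WNT9B beginning 46 bases away on the other strand; WNT9B was listed at 0 in all 8 libraries.

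WNT4, which can signal with or without beta-catenin, was at 0.944, 0.502, 0.566 and 0.425 FPKM in OGD-R libraries 1 to 4, against 0.241, 0.271, 0.724 and 0.803 FPKM in Controls 1 to 4. OGD-R lay between the pairs of Controls or above them, and the groups overlapped (log2 difference 0.10; exact two-sided permutation p = 0.571). WNT5A, the best known ligand of the branch without beta-catenin, was at 0.496, 0.476, 0.380 and 0.555 FPKM in OGD-R libraries 1 to 4, against 0.853, 0.941, 0.340 and 0.381 FPKM in Controls 1 to 4. OGD-R was below Controls 1 and 2 and, apart from OGD-R 3, which was just below Control 4, above Controls 3 and 4 (log2 difference -0.12; exact two-sided permutation p = 0.429). Both differences changed direction with the Controls kept. Against Controls 1 and 2 alone the log2 difference was 0.35 for WNT4 and -0.36 for WNT5A, and against Controls 3 and 4 alone it was -0.14 for WNT4 and 0.12 for WNT5A. WNT5A was thus lower and its relative WNT5B higher in Controls 3 and 4 than in Controls 1 and 2, with ratios of 0.402 and 2.90. WNT4 (ENSG00000162552) lies on chromosome 1, 22117305 to 22143969, and WNT5A (ENSG00000114251) on chromosome 3, 55465715 to 55490539, both on the minus strand.

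FZD6, a Frizzled receptor that takes part in planar polarity of the skin and its hairs, rose in OGD-R. It was at 38.6, 34.96, 33.8 and 35.1 FPKM in OGD-R libraries 1 to 4, against 21.7, 26.95, 29.9 and 26.9 FPKM in Controls 1 to 4. Every OGD-R library was above every Control, the lowest OGD-R value being 33.8 FPKM and the highest Control value 29.9 FPKM. The means were 35.6 ± 2.08 FPKM in OGD-R and 26.4 ± 3.43 FPKM in Control (SD, n = 4 each), and the log2 fold change was 0.43 ± 0.11 (SE; limma adjusted p = 0.0298). With either pair of Controls left out FZD6 also passed (0.54 without Controls 3 and 4 and 0.32 without Controls 1 and 2). So did 55.2% and 67.6% of all genes tested, so passing in these fits says little. Leaving out any 1 OGD-R library ended the call (limma adjusted p between 0.0692 and 0.0896), in the same fits where calls fell over all genes tested. FZD6 (ENSG00000164930) lies on chromosome 8, 103298433 to 103332866, plus strand; its exons overlap those of the antisense gene BAALC-AS1, and reads of the pair could not be told apart if strand was not used.

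DKK1, a secreted inhibitor that binds the LRP5 and LRP6 co-receptors, was the most abundant member in both groups. It was at 79.6, 79.2, 80.4 and 87.7 FPKM in OGD-R libraries 1 to 4, against 87.1, 93.4, 113 and 100.2 FPKM in Controls 1 to 4. OGD-R 1 to 3 were below every Control, while OGD-R 4 was just above Control 1. The log2 fold change was -0.26 (95% interval -0.49 to -0.03), and DKK1 was not called (limma adjusted p = 0.106). Without Controls 1 and 2 it was -0.38 and passed (limma adjusted p = 0.00155), and without Controls 3 and 4 it was -0.14 and did not (limma adjusted p = 0.0919). Of all genes tested, 67.6% passed without Controls 1 and 2 and 55.2% without Controls 3 and 4. DKK1 (ENSG00000107984) lies on chromosome 10, 52314296 to 52318042, plus strand, and its exons overlap the antisense gene PRKG1-AS1, with the same limit.

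AXIN2 (ENSG00000168646; chromosome 17, 65528563 to 65561647, minus strand), a scaffold of the destruction complex and a common readout of beta-catenin activity, was barely present. Its exons overlap those of AC004805.1, a protein-coding gene on the same strand that is listed at 0 in every library, and how reads shared by the pair were counted is not stated, so the level of AXIN2 is uncertain. It was at 0, 0.0212, 0.0656 and 0.0345 FPKM in OGD-R libraries 1 to 4, against 0, 0, 0.0108 and 0.0477 FPKM in Controls 1 to 4. On its longest coding transcript these values come to about 5.97 fragments at most. A count of 0 allows up to 3 fragments, which is 0.0362 FPKM in OGD-R 1, 0.0283 FPKM in Control 1 and 0.0297 FPKM in Control 2, counting error only. A difference of a few fragments in AXIN2 was therefore not detectable at this depth (exact two-sided permutation p = 0.457). Of 20 other beta-catenin targets, 9 had a mean under 1 FPKM and overlapped between groups, while the 11 tested ones are given with the other pathway genes. LEF1, itself a beta-catenin partner, was between 0.0135 and 0.108 FPKM in OGD-R and between 0.0324 and 0.0958 FPKM in Control. NKD1, an inhibitor of Dishevelled, was at most 0.0150 FPKM in OGD-R and 0.0155 FPKM in Control, and LGR5, an R-spondin receptor, at most 0.0616 FPKM in OGD-R and 0.146 FPKM in Control.

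Of the 10 genes, 2 rose (WNT10A and FZD6), 2 fell (WNT7A and WNT5B), 2 were tested and did not pass (WNT7B and DKK1), and 4 were too low for the test. Over all 11740 genes tested, 1202 were higher (10.2%) and 1138 lower (9.69%) in OGD-R, 19.9% in all. With mitochondrially encoded genes left out of the scaling, the split over all genes was 1600 higher and 871 lower, while the calls of the members stayed at 2 and 2. Every OGD-R library was above every Control in 15.2% of the tested genes and below in 14.8%, together 30.0%, beside 4 of the 6 tested members. The members were chosen with earlier results of these data known, so their share is set beside these figures and nothing is read from it.

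**Figure D2:**
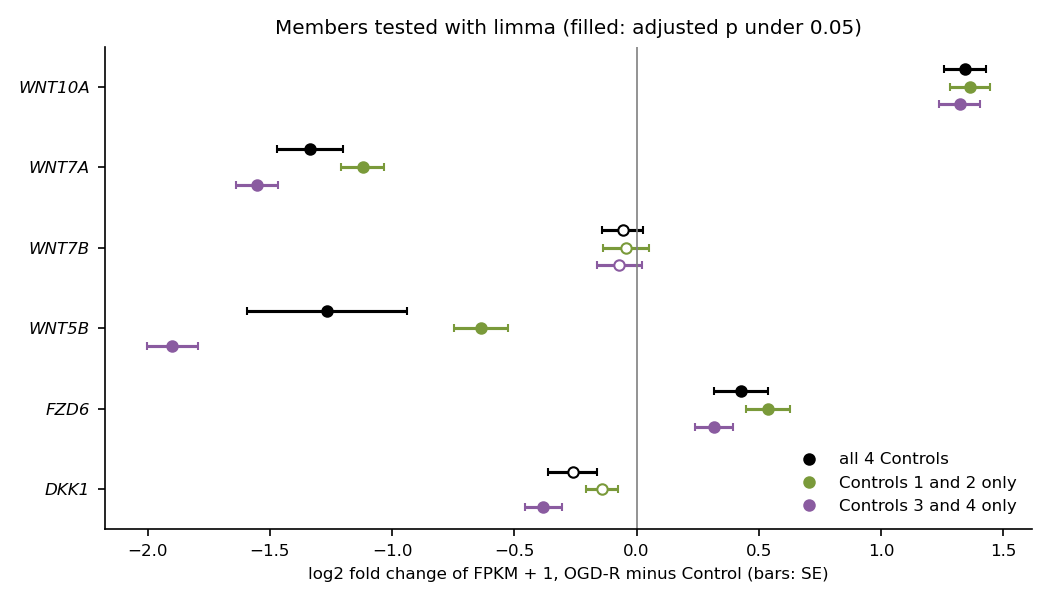
Log2 fold change of FPKM + 1, OGD-R minus Control (horizontal axis), with SE bars, for the 6 tested members against all 4 Controls (black), Controls 1 and 2 only (green) and Controls 3 and 4 only (purple); filled points have an adjusted p under 0.05. WNT10A stays between 1.32 and 1.36, whereas WNT5B runs from -0.64 to -1.90 with the Controls used.

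The order of the levels changed among the ligands. By mean FPKM in OGD-R the order was DKK1, WNT10A, FZD6, WNT7B, WNT7A, WNT5B, WNT3, WNT4, WNT5A and AXIN2. Only WNT3 with WNT4 and WNT4 with WNT5A overlapped there between neighbours. In Control the order was DKK1, FZD6, WNT10A, WNT7A, WNT5B, WNT7B, WNT3, WNT5A, WNT4 and AXIN2, and WNT7A with WNT5B, WNT5B with WNT7B, and WNT5A with WNT4 overlapped. WNT10A was thus above FZD6 in every OGD-R library and below it in every Control library.

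The ligand messages as a pool were larger in OGD-R and more of them were WNT10A. The summed FPKM of all 19 human Wnt ligands was 97.99, 82.9, 90.5 and 83.4 in OGD-R 1 to 4, against 47.5, 45.2, 70.2 and 66.3 in Controls 1 to 4. WNT10A made up 59.97% ± 0.623 of it in OGD-R and 36.7% ± 7.48 in Control (SD, n = 4 each), where Controls 1 and 2 were at 43.1% and 43.2% and Controls 3 and 4 at 30.4% and 30.1%. WNT7A made up 2.49% ± 0.130 in OGD-R and 12.6% ± 0.622 in Control (SD, n = 4 each). The ratio of WNT10A to WNT7A, which does not depend on library scaling, was 26.0, 23.9, 23.7 and 22.8 in OGD-R 1 to 4, against 3.22, 3.49, 2.39 and 2.52 in Controls 1 to 4. The 6 other ligands described above summed to 8.75 ± 0.721 FPKM in OGD-R and 18.4 ± 4.76 FPKM in Control (SD, n = 4 each), with no overlap. The ratio and the sum of these 6 follow from the members' own values. The larger mean of the pool also follows the rise of WNT10A and is not a separate result. The pool averaged 88.7 FPKM in OGD-R and 57.3 FPKM in Control, and WNT10A alone 53.2 FPKM in OGD-R and 20.3 FPKM in Control. The pool of 19 also holds 12 ligands outside the members. The largest of those was WNT11, at 21.7% ± 0.507 of the pool in OGD-R (SD, n = 4). It was at 11.1% and 10.4% in Controls 1 and 2 and at 22.2% and 22.1% in Controls 3 and 4. The pool, the percentages, the ratio and the sum of 6 were given no test.

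**Figure D3:**
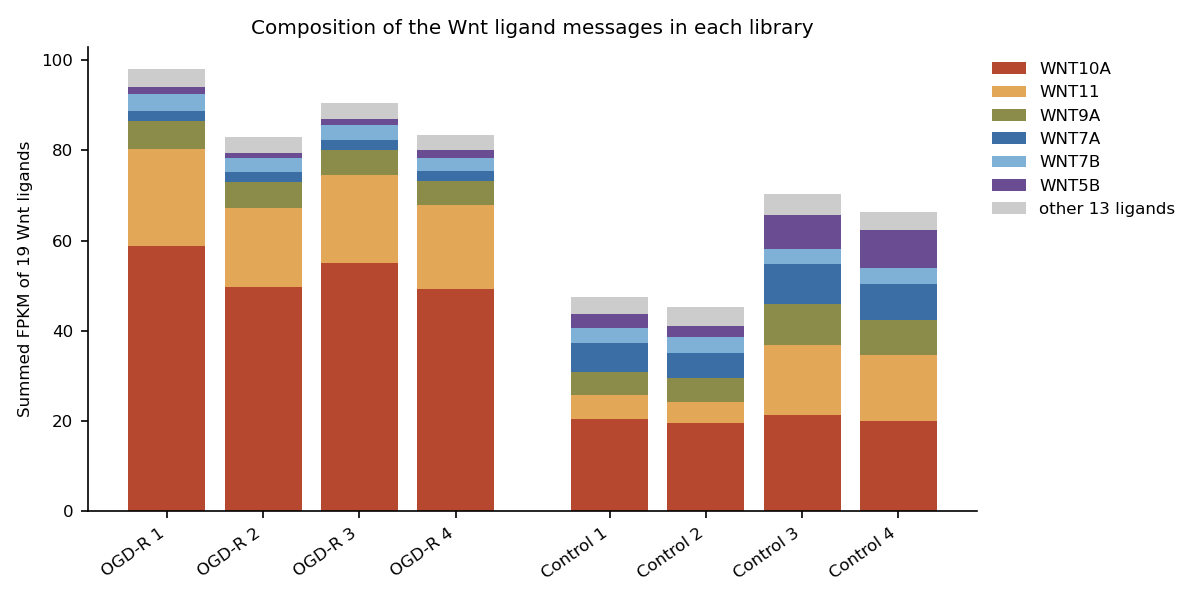
Summed FPKM of the 19 Wnt ligands (vertical axis from 0) in each OGD-R and Control library, divided by ligand; the grey segment holds the other 13 ligands. The WNT10A segment is the largest in every library and takes about 60% of the OGD-R bars. The WNT7A and WNT5B segments are thin there, wider in all 4 Controls and widest in Controls 3 and 4.

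Of the other 12 ligands, 2 passed the limit for the test and neither was called. WNT11, a ligand of cell movement in development, was at 21.6, 17.4, 19.5 and 18.5 FPKM in OGD-R libraries 1 to 4, against 5.27, 4.68, 15.6 and 14.7 FPKM in Controls 1 to 4. Every OGD-R library was above every Control, but the spread of the Controls was wide (log2 fold change 1.04, limma adjusted p = 0.0817). With either pair of Controls left out WNT11 passed (1.76 without Controls 3 and 4 and 0.33 without Controls 1 and 2). So did 55.2% and 67.6% of all genes tested. WNT9A was at 5.73 ± 0.341 FPKM in OGD-R and 6.82 ± 1.85 FPKM in Control (SD, n = 4 each; limma adjusted p = 0.456). Of the rest, 7 had a mean under 0.1 FPKM and 2 of these were listed at 0 throughout. Among 5 genes of ligand lipidation and secretion, 1 of 2 tested fell. This was PORCN, the acyltransferase that attaches palmitoleate to Wnt ligands, at 28.5 ± 1.26 FPKM in OGD-R and 70.8 ± 17.7 FPKM in Control (log2 fold change -1.25 ± 0.17, SE; limma adjusted p = 0.00213). WLS, which carries ligands to the cell surface, was at 25.96 ± 0.401 FPKM in OGD-R and 25.9 ± 12.7 FPKM in Control, and it was called in opposite directions without Controls 3 and 4 (-0.49) and without Controls 1 and 2 (0.77).

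Receptors and co-receptors other than FZD6 mostly did not pass. Of 10 tested, 2 rose and 0 fell (median log2 fold change 0.09, against 0.02 over all genes tested). Of all genes tested, 10.2% rose and 9.69% fell. PTK7, a co-receptor in planar polarity, was at 32.3 ± 2.56 FPKM in OGD-R and 20.8 ± 1.72 FPKM in Control (limma adjusted p = 0.00414). FZD1 was low, at 1.48 ± 0.103 FPKM in OGD-R and 0.877 ± 0.232 FPKM in Control (limma adjusted p = 0.0384), a call that ended with the replicate block and without any 1 OGD-R library, Control 3 or Control 4 (limma adjusted p between 0.0833 and 0.105). RYK, the most abundant of the list, was at 34.8 ± 0.959 FPKM in OGD-R and 33.5 ± 2.14 FPKM in Control (SD, n = 4 each; limma adjusted p = 0.663). FZD6 was higher than any other Frizzled gene in the tables in every library.

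Among secreted inhibitors and their receptors, 2 of 6 tested rose and 1 fell (median 0.09), and 4 of the 15 listed genes were at 0 throughout. APCDD1, a membrane-bound Wnt inhibitor of the hair follicle, was at 13.6, 12.9, 14.1 and 13.8 FPKM in OGD-R libraries 1 to 4, against 0.875, 1.16, 4.17 and 4.36 FPKM in Controls 1 to 4. It rose by the largest amount of the 72 other pathway genes tested (log2 fold change 2.16 ± 0.35, SE; limma adjusted p = 0.00462). KREMEN1, a receptor that works with DKK1 to remove LRP6 from the surface, rose and was at 10.3 ± 0.691 FPKM in OGD-R and 4.05 ± 0.780 FPKM in Control (limma adjusted p = 0.000694). DKK3, a divergent relative of DKK1, was at 32.6 ± 2.19 FPKM in OGD-R and 55.2 ± 16.8 FPKM in Control (limma adjusted p = 0.0477), and its call ended under 5 other settings, among them both rescalings and the replicate block, and without any 1 OGD-R library, Control 3 or Control 4 (limma adjusted p between 0.0501 and 0.123). SFRP1, which binds ligands directly, was at 23.8 ± 0.826 FPKM in OGD-R and 20.8 ± 7.79 FPKM in Control (limma adjusted p = 0.476), and it too was called in opposite directions, at -0.20 against Controls 1 and 2 alone and 0.73 against Controls 3 and 4 alone.

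Of the 9 genes of receptor turnover and R-spondin signalling, 4 were tested and 1 fell (median -0.18). LGR6, an R-spondin receptor, was at 1.63 ± 0.203 FPKM in OGD-R and 2.998 ± 0.748 FPKM in Control (limma adjusted p = 0.0320), which ended with no filter, with the replicate block, and without any 1 OGD-R library or Control 1, 2 or 3 (limma adjusted p between 0.0521 and 0.0966). Its relative LGR4 was at 13.2, 13.6, 12.8 and 14.7 FPKM in OGD-R libraries 1 to 4, against 12.2, 12.8, 3.81 and 3.61 FPKM in Controls 1 to 4. OGD-R was thus near Controls 1 and 2 and above Controls 3 and 4 (limma adjusted p = 0.150). The 4 R-spondin genes had means under 0.1 FPKM.

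Inside the cell, 3 of 12 tested destruction complex genes fell and 0 rose (median -0.17), where 9.69% of all genes tested fell and 10.2% rose. GSK3A, a kinase that marks beta-catenin for removal, was at 13.6 ± 1.15 FPKM in OGD-R and 18.5 ± 1.16 FPKM in Control (limma adjusted p = 0.0147), which was lost without OGD-R 3 (0.0557) or OGD-R 4 (0.0563) and with the replicate block (0.0846). AXIN1, the constitutive relative of AXIN2, was at 10.2 ± 0.849 FPKM in OGD-R, against 12.98, 13.6, 25.0 and 22.9 FPKM in Controls 1 to 4 (limma adjusted p = 0.0441). The kinase CSNK1E was at 18.99 ± 1.31 FPKM in OGD-R, against 25.8, 25.5, 55.5 and 55.4 FPKM in Controls 1 to 4 (limma adjusted p = 0.0455). Both calls were lost with equalised medians, with mitochondrially encoded genes left out of the scaling, with no filter, with the replicate block, without any 1 OGD-R library, and without Control 3 or Control 4 (limma adjusted p between 0.0577 and 0.119). CSNK1A1 and CSNK1D, the most abundant of the list, were at 67.3 ± 3.64 and 37.9 ± 2.22 FPKM in OGD-R and at 68.4 ± 4.09 and 45.7 ± 9.01 FPKM in Control (SD, n = 4 each; limma adjusted p = 0.869 and 0.263).

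Of 13 tested genes of Dishevelled, beta-catenin and TCF/LEF, 1 rose and 1 fell (median -0.09). DVL1, a Dishevelled protein that relays the signal from the receptor, was at 18.7 ± 1.47 FPKM in OGD-R and 40.6 ± 7.16 FPKM in Control (log2 fold change -1.06 ± 0.13, SE; limma adjusted p = 0.00133). TLE4, a Groucho-type co-repressor of TCF factors, was at 7.65 ± 0.755 FPKM in OGD-R and 3.88 ± 0.476 FPKM in Control (limma adjusted p = 0.00148). CTNNB1, the beta-catenin gene, was at 47.1 ± 2.298 FPKM in OGD-R and 56.5 ± 4.87 FPKM in Control (SD, n = 4 each, limma adjusted p = 0.0866). With either pair of Controls left out CTNNB1 passed (-0.27 without Controls 3 and 4 and -0.24 without Controls 1 and 2). So did 55.2% and 67.6% of all genes tested.

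Genes known as beta-catenin targets in many tissues moved both ways: of 11 tested, 2 rose and 1 fell (median -0.25). TBX3, a T-box factor, was at 2.67 ± 0.431 FPKM in OGD-R, against 5.91, 4.83, 19.2 and 20.99 FPKM in Controls 1 to 4 (limma adjusted p = 0.0325). MMP7, the matrilysin protease, was at 5.87 ± 1.084 FPKM in OGD-R, against 0.609, 0.369, 3.11 and 3.22 FPKM in Controls 1 to 4 (limma adjusted p = 0.0336). SP6, a transcription factor, was near the limit for the test (limma adjusted p = 0.0321). The TBX3 and SP6 calls were lost without Control 3 or 4 and the MMP7 call without Control 1 or 2, and all 3 were lost without OGD-R 1, 3 or 4 and with the replicate block. TBX3 and MMP7 were also lost without OGD-R 2 and with no filter, and MMP7 with a pseudocount of 0.1 or 0.01 (limma adjusted p over all of these settings between 0.0505 and 0.102). MYC was at 76.2 ± 3.73 FPKM in OGD-R, against 102, 106.5, 282 and 297 FPKM in Controls 1 to 4 (limma adjusted p = 0.0574). With either pair of Controls left out MYC passed (-0.45 without Controls 3 and 4 and -1.91 without Controls 1 and 2). So did 55.2% and 67.6% of all genes tested. CD44, the most abundant of the list, was at 185 ± 18.1 FPKM in OGD-R and 226 ± 21.4 FPKM in Control (SD, n = 4 each; limma adjusted p = 0.0967).

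In the planar polarity list, to which FZD6 is linked by function, 3 of 14 tested genes rose and 0 fell (median -0.04, against 0.02 over all genes tested). Of all genes tested, 10.2% rose and 9.69% fell, and nothing is read from the direction of these 3. CELSR2, an atypical cadherin, was at 22.9, 20.97, 20.5 and 20.3 FPKM in OGD-R libraries 1 to 4, against 7.72, 7.36, 11.4 and 11.1 FPKM in Controls 1 to 4 (log2 fold change 1.11 ± 0.15, SE; limma adjusted p = 0.00187). VANGL2, a core polarity membrane protein, was at 3.23 ± 0.354 FPKM in OGD-R and 1.33 ± 0.258 FPKM in Control (limma adjusted p = 0.00169). DAAM1, a formin that links Dishevelled to actin, was at 21.7 ± 1.18 FPKM in OGD-R and 14.1 ± 1.89 FPKM in Control (limma adjusted p = 0.00777). The abundant GTPases RAC1 and RHOA were at 186 ± 6.91 and 129 ± 3.66 FPKM in OGD-R and at 196 ± 6.70 and 149 ± 6.66 FPKM in Control (SD, n = 4 each; limma adjusted p = 0.514 and 0.0886).

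**Figure D4:**
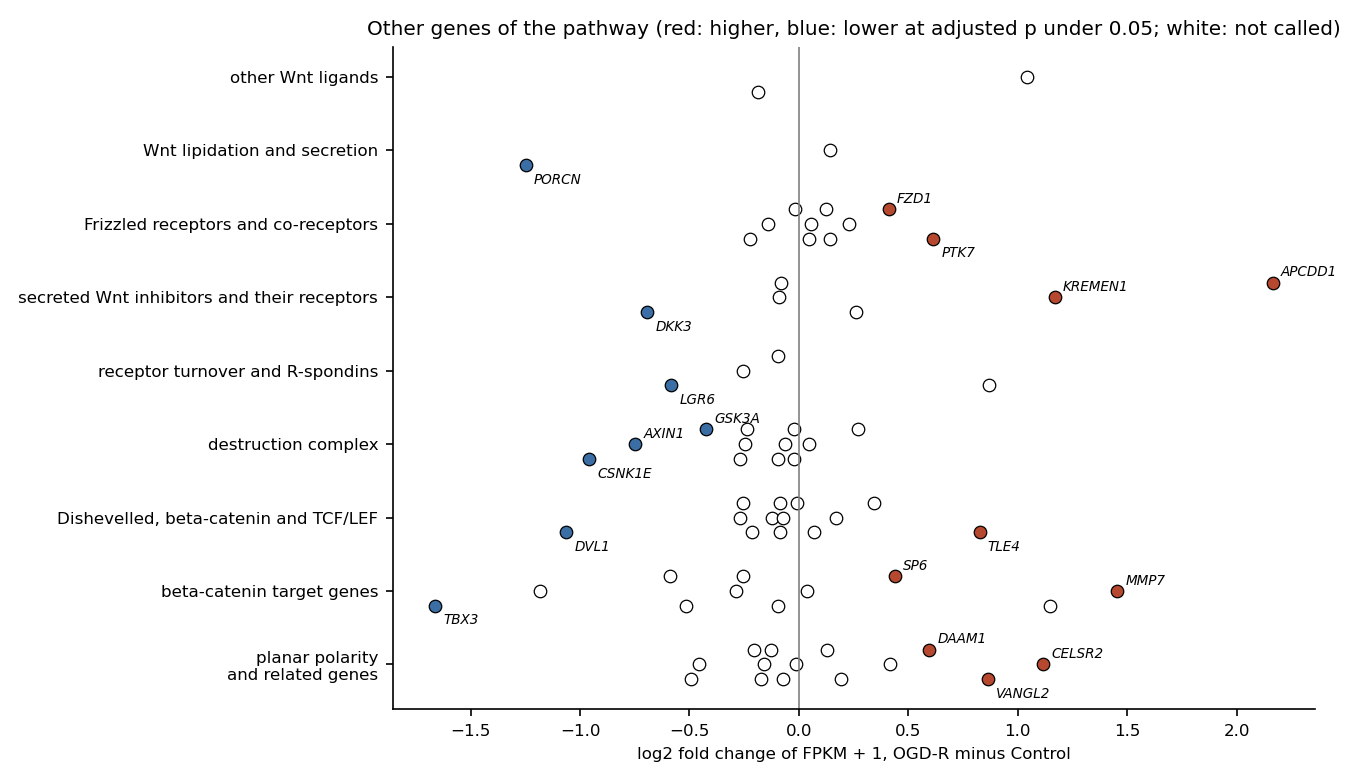
Log2 fold change of FPKM + 1, OGD-R minus Control (horizontal axis), of the tested genes of 9 lists of other Wnt pathway genes (rows; vertical offsets within a row only separate points), with genes higher in OGD-R in red, lower in blue and not called in white. Called genes lie on both sides of 0, and the 3 called of 14 tested planar polarity genes lie to the right.

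Across the 9 lists, 72 different genes outside the 10 members were tested; 10 rose and 8 fell, 25% in all, beside 19.9% of all genes. With a pair of Controls left out, so many genes passed that the lists were again near the whole table: 54.2% of them against 55.2% of all genes without Controls 3 and 4, and 66.7% against 67.6% without Controls 1 and 2. The 18 called genes kept their direction and their call in both of these fits. They were chosen from a fit that holds the same libraries.

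The genes whose pattern over the 8 libraries was most like that of each tested member are given as a description, since all libraries are shared and 33 genes followed WNT10A, and 33 followed WNT5B, with a Pearson r above 0.99. Closest to WNT10A were SCNN1G, a subunit of the epithelial sodium channel (r = 0.998), and CDC42BPG, a CDC42-binding kinase (r = 0.998). SCNN1G was at 5.39 ± 0.890 FPKM in OGD-R and 0.258 ± 0.0695 FPKM in Control (SD, n = 4 each). Closest to WNT7A were SPHK1, a sphingosine kinase (r = 0.995), and KIF1C, a kinesin (r = 0.994), and SPHK1 was at 1.52 ± 0.259 FPKM in OGD-R and 9.72 ± 3.90 FPKM in Control (SD, n = 4 each). WNT5B was closest to CCNA1, a cyclin, and TESK1, a kinase (r = 0.997 each). FZD6 was closest to HOOK1 and ZKSCAN8 (r = 0.986 and 0.984), DKK1 to SLMAP and DGKA (r = 0.981 and 0.980), and WNT7B to TRAPPC9 and ANKRD52 (r = 0.929 and 0.888).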

How the data were processed

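RNA sequencing of 8 HaCaT libraries, 4 OGD-R and 4 Control, was grouped by sample titles. Per the labels' protocols, libraries came from total RNA; the aligner, counter, build and annotation remain not given in the sources used here. Each library has 1 table made by the authors. No unit stands in it, and FPKM was inferred for the deposited values, since the lowest values of 944 single-exon genes were spaced by a constant over gene length. Between 11 and 18 values per library lay within 0.5% of that step, so depths are approximate. All 19974 Ensembl IDs were found in GENCODE 29 (GRCh38), 19925 with the same symbol, and coordinates are from there. How reads on overlapping or antisense genes were divided is not stated: exons of DKK1, FZD6 and WNT4 overlap antisense or divergent non-coding genes, and those of AXIN2 a protein-coding gene on its own strand.

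Log2(FPKM + 1) was tested with limma 3.58.1 (R 4.3.3, intensity trend, two-sided, Benjamini-Hochberg) for 11740 genes that averaged 1 FPKM or more, at a threshold of 0.05. Fold changes on this scale understate low genes. The fit was also run on simulated data that gave both groups the spread of the OGD-R libraries. Those data held no split of the Controls, so they cannot show how the test behaves with it. Lower members were compared by exact permutation over 70 splits. A count test was foreseen only for counts. Members, lists and tests were chosen with earlier results of these data known. Named were all members, up to 4 called genes of each list by size of change, the 2 most abundant of each, and the 2 genes most correlated with each tested member; WNT6, WNT9B, LEF1, NKD1, LGR5 and the cell type markers were named after their values were seen. Promoter windows are from RefSeq. Alternatives covered scaling, pseudocount, filter, trend, replicate block and libraries left out.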

Additional observations from a re-analysis of the deposited data

Results flagged for a closer look

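DKK1 in OGD-R 4, at 87.7 FPKM, stood apart from the other OGD-R libraries, which lay between 79.2 and 80.4 FPKM. Its gap to the nearest library was 0.863 of the range of the group, above Dixon's limit for 4 values. It was 1 of 26 groups of values examined, and chance marks about 1 group in 20. Without OGD-R 4 the log2 fold change of DKK1 was -0.30 (limma adjusted p = 0.149), beside -0.26 and 0.106 with all libraries.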

How the results depend on the processing

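WNT10A rose and WNT7A fell in every alternative in which they were tested; WNT7A, WNT7B and WNT5B were below the stricter filter of 5 FPKM. The count of members called stayed at 2 higher and 2 lower except as follows. With that filter 0 were lower, since both lower genes were no longer tested, and 689 genes were higher in all. With the replicate block 1 member was higher (FZD6 was lost, limma adjusted p = 0.112), and 625 genes were higher and 507 lower, beside 1202 and 1138. With 1 library left out, between 1 and 2 members were higher and between 1 and 2 lower, and between 711 and 1426 genes were higher and between 561 and 1312 lower. Without any 1 OGD-R library these were 711 to 744 higher and 561 to 669 lower, so many calls ended over the whole table. Without Controls 3 and 4, 2673 genes were higher and 3807 lower, and without Controls 1 and 2, 4603 and 3337; members called lower were then 3, with DKK1 added. The cause of these changes was not tested. Directions that reversed were those of genes not called with all libraries. WNT7B (0.000869), RAC1 (0.00102) and CSNK1A1 (0.0505) reversed when scaled without mitochondrially encoded genes. CSNK1A1 also reversed without OGD-R 3 (0.0155) and without Control 3 (0.00918). Over single libraries left out, CSNK1A1 ran from -0.0551 to 0.0155 and WLS from -0.12 to 0.356. SFRP1 (-0.20), WLS (-0.49) and WNT9A (0.0997) reversed without Controls 3 and 4, and WLS without Control 3 (-0.0240) or Control 4 (-0.12). Same-numbered libraries deviated together only weakly (correlations of 0.045 to 0.065), and libraries with other numbers ran from -0.106 to 0.113. Correlations within numbers 1 and 2 and within 3 and 4 were positive, and those across were negative. Deviations of the Controls also hold their split, so these correlations cannot tell whether same-numbered libraries were paired. The labels do not state pairing. Depth limits AXIN2, whose values rest on a handful of fragments, and the low ligands WNT3, WNT4 and WNT5A.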
